A study of Mus musculus with 4 samples.

Results

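Cyclooxygenase-2 and 12-lipoxygenase were measured in mouse lung by 3 of the 98 gene assays of an RT-qPCR panel. The assays are named *COX-2*, *PTGS2* and *ALOX12*, and were found among the numbered assays by matching the fold changes printed for each gene with those deposited by number. *COX-2* and *PTGS2* are separate assays of 1 mouse gene, Ptgs2, for which RefSeq lists Cox-2 as another name, so the 3 assays stand for 2 genes. Lungs came from female C57BL/6J mice aged 6 to 8 weeks. In HBSS + vehicle, mice without cancer received Hank's balanced salt solution intranasally. In S100A8 + vehicle, mice without cancer received 10 µg of recombinant mouse S100A8, a calcium-binding protein of myeloid cells. In HBSS + LLC and S100A8 + LLC, Lewis lung carcinoma cells, a mouse lung cancer line, had been injected into the lung before the same treatments. Vehicle mice were injected with buffered saline and Matrigel in place of the cells. Intranasal doses fell on Days 3, 6 and 9 after injection, and whole lungs were taken on Day 10. The values of 4 to 5 mice were averaged before deposit, so each group is 1 value per assay, with no SD between mice and no test between groups.

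Cyclooxygenase-2 converts arachidonic acid to prostaglandin H2, from which prostaglandin E2, thromboxane and other prostanoids are made. It is the inducible form of the enzyme, switched on by cytokines, growth factors and hypoxia in macrophages, epithelium and many tumors, and prostaglandin E2 is known to favor myeloid-derived suppressor cells (MDSC). 12-Lipoxygenase adds oxygen to the same fatty acid to give 12-HPETE, which is reduced to 12-HETE, and is best known from platelets. Both enzymes therefore draw on 1 substrate and give different lipid mediators.

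RefSeq places Ptgs2 on the plus strand at chr1:150100031-150108234 and Alox12 on the minus strand at chr11:70241457-70255380 (GRCm38.p6). Positions count from the start site of RefSeq's promoter table, which for Ptgs2 is the first base of the gene and for Alox12 is chr11:70255370, 10 bases inside the annotated gene. The 240 bases from position -250 to -11, which end outside both genes, are shown because both genes were read in all 4 groups and their profiles differed. The windows lie at chr1:150099781-150100020 for Ptgs2 and chr11:70255381-70255620 for Alox12, each written 5′ to 3′ on the strand of its gene. Capitals mark every match to the motifs named after the sequences, searched on both strands.
Ptgs2: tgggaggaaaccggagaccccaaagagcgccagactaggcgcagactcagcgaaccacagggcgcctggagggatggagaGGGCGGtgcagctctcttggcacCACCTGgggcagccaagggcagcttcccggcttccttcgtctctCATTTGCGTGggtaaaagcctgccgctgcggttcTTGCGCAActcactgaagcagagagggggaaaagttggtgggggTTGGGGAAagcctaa
Alox12: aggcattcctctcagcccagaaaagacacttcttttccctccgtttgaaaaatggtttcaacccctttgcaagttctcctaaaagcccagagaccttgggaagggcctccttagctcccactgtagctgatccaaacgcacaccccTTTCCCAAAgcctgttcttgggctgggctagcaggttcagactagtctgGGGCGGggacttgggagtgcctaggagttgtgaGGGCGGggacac
Both windows held the C/EBP motif TTNNGNAA, at 2 separate places in Ptgs2 and in 2 overlapping matches in Alox12. It was present in 36.0% of 32851 RefSeq windows of the same length. The Sp1 motif GGGCGG occurred once in Ptgs2 and at 2 places in Alox12, against 31.3% of windows with a match. The E-box CANNTG had 2 matches in Ptgs2 and 0 in Alox12, with 65.0% of windows matching. The hypoxia response core CGTG had 1 match in Ptgs2, which directly follows an E-box, and 0 in Alox12, with 54.2% of windows matching. TATAAA (12.1% of windows), the cyclic AMP response core TGACG (16.9%) and the NF-κB consensus (6.96%) had 0 matches in both windows. The printed bases stop short of the start sites. In the 50 bases after the start, Ptgs2 held the letters CGTCA, the reverse complement of the cyclic AMP response core, at positions 14 to 18, overlapping the E-box and hypoxia core CACGTG at 17 to 22. Of windows of 300 bases that include these positions, 20.8% held the cyclic AMP response core. Alox12 held a further GGGCGG at 42 to 47. These matches describe the letters of the windows. No binding was measured.

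In RT-qPCR the threshold cycle (Ct) is the cycle at which a product is detected, and 1 cycle less stands for about 2 times more template. The mean Ct of *COX-2* was 28.51 with HBSS + vehicle, 30.23 with S100A8 + vehicle, 26.81 with HBSS + LLC and 29.87 with S100A8 + LLC. It was lowest in HBSS + LLC, and both S100A8-treated groups had the highest cycles. For *PTGS2* the mean Ct was 20.81 with HBSS + LLC, 21.90 with HBSS + vehicle, 23.22 with S100A8 + LLC and 25.09 with S100A8 + vehicle. The order was again lowest Ct in HBSS + LLC, and S100A8 + vehicle stood 1.87 cycles above S100A8 + LLC. *ALOX12* had a mean Ct of 26.02 with HBSS + LLC, 28.30 with S100A8 + vehicle, 28.48 with HBSS + vehicle and 28.54 with S100A8 + LLC. Here 3 groups lay close together and HBSS + LLC stood apart at a lower Ct. All 3 assays stayed below the cut off of 38 cycles in every group. The *COX-2* value of 30.23 in S100A8 + vehicle was the only value of these assays above 30 cycles, where an assay detects few molecules. In whole lung, fewer cells of a type and less RNA per cell cannot be told apart.

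**Figure D1:**
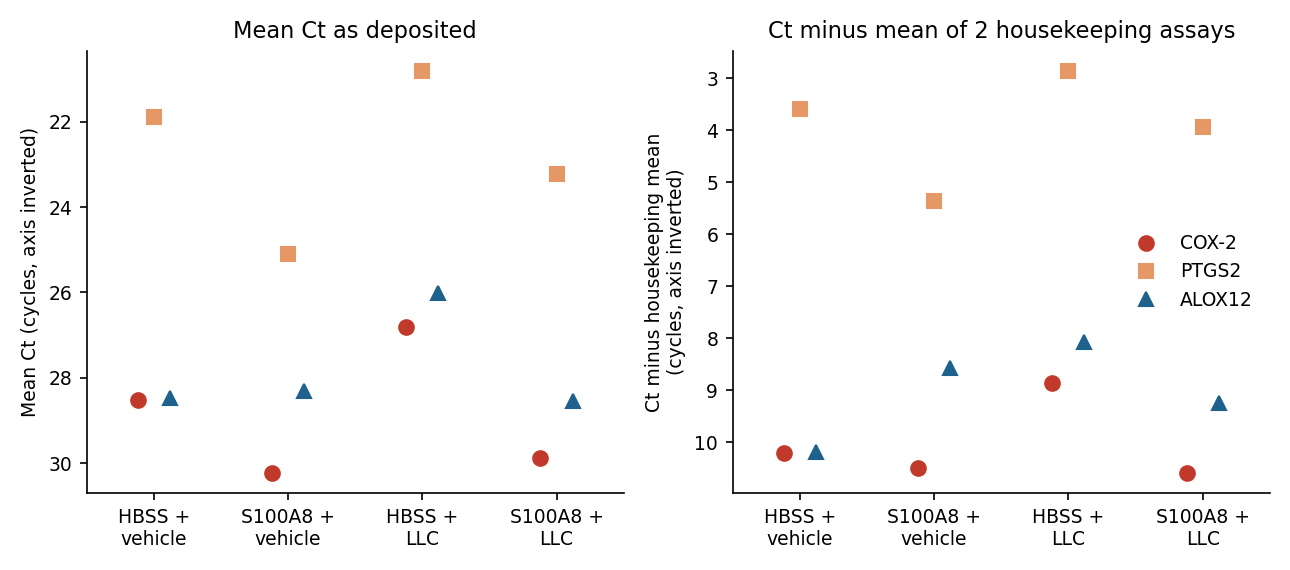
Mean Ct (left, cycles, axis inverted) and Ct minus the mean of the 2 housekeeping assays (right, cycles, axis inverted) of the 3 assays in the 4 groups, 1 averaged value per group and no error bars. Points higher in the plot stand for more transcript. HBSS + LLC is the highest group for all 3 assays, with Ct minus reference of 8.86 for *COX-2*, 2.86 for *PTGS2* and 8.07 for *ALOX12*.

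Ct values were set against the mean Ct of the panel's 2 housekeeping assays, and a fold change of more than 2 either way was called. The housekeeping assays did not move together. The first had a Ct of 14.09 with HBSS + vehicle, 16.17 with S100A8 + vehicle, 15.35 with HBSS + LLC and 15.82 with S100A8 + LLC, and the second had 22.50, 23.30, 20.56 and 22.75. From HBSS + vehicle to HBSS + LLC the first thus went up and the second went down, and every fold change that compares these groups depends on which is used. Across the panel, 13 to 23 of the 98 genes were above 30 cycles in a group, and 0 to 3 were at the cut off. HBSS + vehicle, the control in 3 of the 5 comparisons, stood apart in several widely expressed genes, chosen here after their values were seen. *SOD1* (superoxide dismutase) was at 38 cycles there and at 19.79 to 30.55 elsewhere, and *TXN* (thioredoxin) at 37.41 against 20.92 to 32.72. *PRDX1* (a peroxiredoxin) was at 30.55 against 22.07 to 24.95, and *ICAM-1* (an adhesion molecule) at 32.47 against 19.23 to 21.39. What sets HBSS + vehicle apart was not tested. That group enters every fold change against HBSS + vehicle and every difference of effects given here. It does not enter S100A8 + LLC against HBSS + LLC or S100A8 + LLC against S100A8 + vehicle. The latter, however, rests on S100A8 + vehicle, which was also high in Ct for *SOD1* and *TXN*.

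Relative to the housekeeping mean, *COX-2* stood at 10.21 cycles with HBSS + vehicle, 10.50 with S100A8 + vehicle, 8.86 with HBSS + LLC and 10.59 with S100A8 + LLC. Its level was thus highest in HBSS + LLC, followed by HBSS + vehicle at a distance of 1.36 cycles, then by S100A8 + vehicle and S100A8 + LLC at 0.28 and 0.09 cycles further. *PTGS2* stood at 3.60, 5.36, 2.86 and 3.93 cycles in the same group order. Its level was highest in HBSS + LLC and lowest in S100A8 + vehicle, with the largest gap, 1.42 cycles, between S100A8 + LLC and S100A8 + vehicle. *ALOX12* stood at 10.18, 8.57, 8.07 and 9.25 cycles. Its level was highest in HBSS + LLC, then S100A8 + vehicle, S100A8 + LLC and HBSS + vehicle, with gaps of 0.50, 0.69 and 0.93 cycles. Without replicate values, no gap between neighbors in these orders can be set against a spread between mice. With the second housekeeping assay alone, HBSS + LLC was no longer the highest group for any of the 3, and the highest was HBSS + vehicle for *COX-2* and *PTGS2* and S100A8 + vehicle for *ALOX12*. The range over the 4 groups was 1.73 on the log2 scale for *COX-2*, 2.50 for *PTGS2* and 2.12 for *ALOX12*. Among the 93 genes below 38 cycles in all groups, ordered from the widest range, these were the 46th, 26th and 32nd.

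The first comparison asked how S100A8 alone altered the lung without cancer. In S100A8 + vehicle, *ALOX12* was 3.07-fold higher than in HBSS + vehicle (log2 1.62) and *PTGS2* was 3.36-fold lower (log2 -1.75). *COX-2* was 1.21-fold lower (log2 -0.28) and was not called. Of the 97 genes that could be compared, 27.8% were called higher and 17.5% lower, and the panel median was 0.34 on the log2 scale. *ALOX12* was the 17th highest and *PTGS2* the 11th lowest change, while *COX-2* was 64th from the top and 34th from the bottom, 0.62 below the panel median. The direction of *PTGS2* (log2 -3.19 to -1.11) and of *ALOX12* (0.18 to 2.26) was the same with each reference. These were the housekeeping mean, either housekeeping assay, each group's median Ct over the panel genes, or no reference. *COX-2* ranged from -1.72 to 0.36 and had no settled direction. All 3 values rest on the HBSS + vehicle group described above. The *ALOX12* call was lost with the second housekeeping assay, at log2 0.98.

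The second comparison asked what growing LLC cancers altered without S100A8. In HBSS + LLC, all 3 assays were above HBSS + vehicle. *ALOX12* was 4.35-fold higher (log2 2.12) and *COX-2* 2.57-fold higher (log2 1.36), whereas *PTGS2* was 1.68-fold higher (log2 0.75) and was not called. Over the panel, 26.5% of the 98 genes were called higher and 21.4% lower, with a median of -0.19. *ALOX12* ranked 18th, *COX-2* 26th and *PTGS2* 35th from the highest change. These values too are against HBSS + vehicle. The reference mattered most here. With the first housekeeping assay the log2 changes were 2.96 for *COX-2*, 2.35 for *PTGS2* and 3.72 for *ALOX12*, and with the second they were -0.24, -0.85 and 0.52, so that only *ALOX12* was above HBSS + vehicle with each of the references.

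The third comparison set lungs with both S100A8 and LLC cancers against HBSS + vehicle, the group that also served as control in both comparisons above. None of the 3 assays was called. *ALOX12* was 1.91-fold higher (log2 0.93), *COX-2* was 1.29-fold lower (log2 -0.37) and *PTGS2* was 1.26-fold lower (log2 -0.33). Of the panel, 22.4% was called higher and 18.4% lower, with a median of -0.22. *ALOX12* ranked 23rd, *PTGS2* 54th and *COX-2* 57th from the highest change. None of the 3 kept its direction with every reference, and *ALOX12* ranged from -0.06 to 1.67.

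The fourth comparison asked what S100A8 altered in lungs with LLC cancers. In S100A8 + LLC, all 3 assays were called lower than in HBSS + LLC. *COX-2* was 3.32-fold lower (log2 -1.73), *ALOX12* 2.28-fold lower (log2 -1.19) and *PTGS2* 2.11-fold lower (log2 -1.08). Only 15.3% of the 98 genes were called lower and 11.2% higher, and the panel median was -0.05. Among the lowest changes, *COX-2* ranked 8th, *ALOX12* 12th and *PTGS2* 14th. All 3 were below HBSS + LLC with each reference, at -3.06 to -0.87 for *COX-2*, -2.41 to -0.22 for *PTGS2* and -2.52 to -0.33 for *ALOX12*. With the second housekeeping assay, however, none of the 3 was past 2-fold, the upper ends of these ranges being its values. That assay itself read 20.56 cycles in HBSS + LLC but 22.75 in S100A8 + LLC.

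The fifth comparison set S100A8 + LLC against S100A8 + vehicle and asked what LLC cancers altered where both groups had received S100A8. *PTGS2* was 2.68-fold higher in S100A8 + LLC (log2 1.42), the 9th highest change of the panel. *COX-2* was 1.06-fold lower (log2 -0.09) and *ALOX12* 1.61-fold lower (log2 -0.69), and neither was called. Over the panel, 12.2% of genes were called higher and 29.6% lower, with a median of -0.44. The largest higher changes were *TXN* and *SOD1*, at log2 11.16 and 10.31, both also at high Ct in S100A8 + vehicle. *PTGS2* kept its direction with every reference (1.25 to 1.87), as did *ALOX12* (-0.86 to -0.24), whereas *COX-2* ranged from -0.26 to 0.36.

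**Figure D2:**
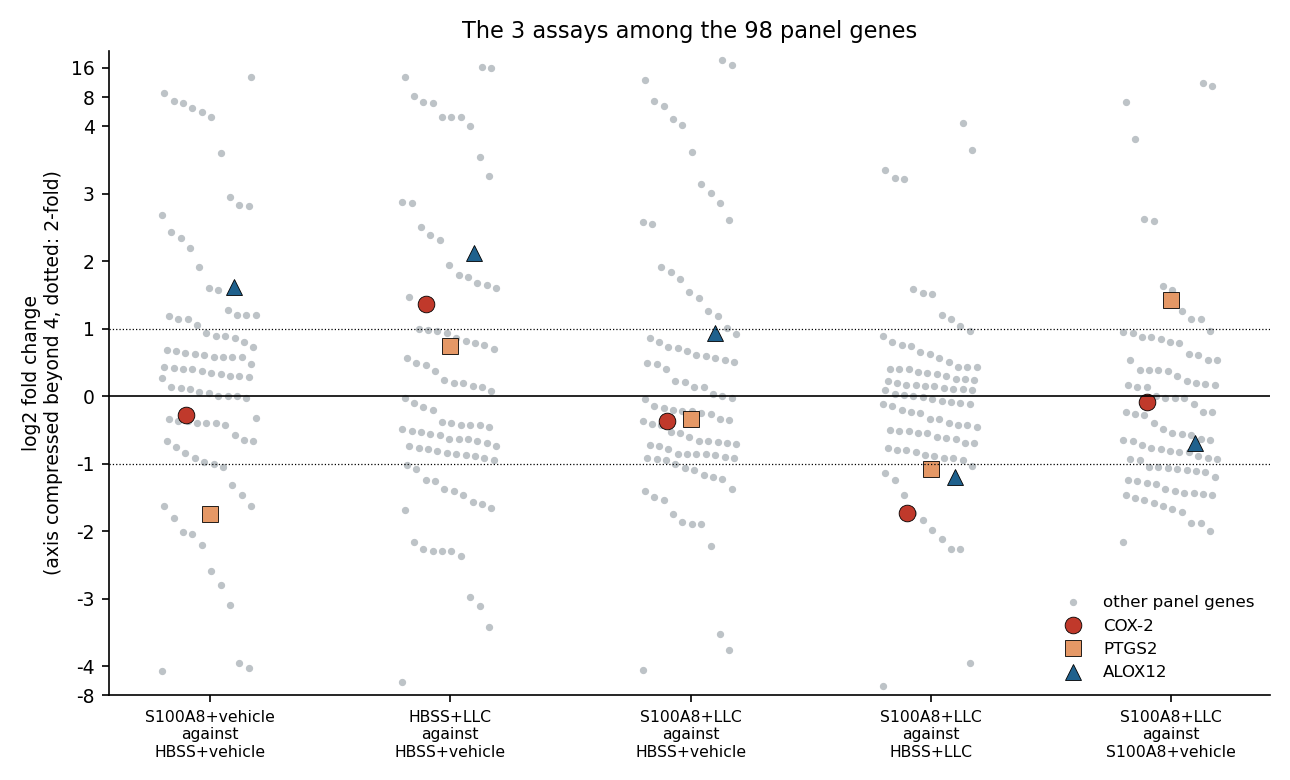
Log2 fold change of the 3 assays (colored) among the panel genes (gray) in the 5 comparisons, each point 1 gene and 1 averaged value per group, dotted lines at 2-fold and the axis compressed beyond 4. All 3 assays lie below the lower dotted line in S100A8 + LLC against HBSS + LLC, at -1.73, -1.08 and -1.19.

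**Figure D3:**
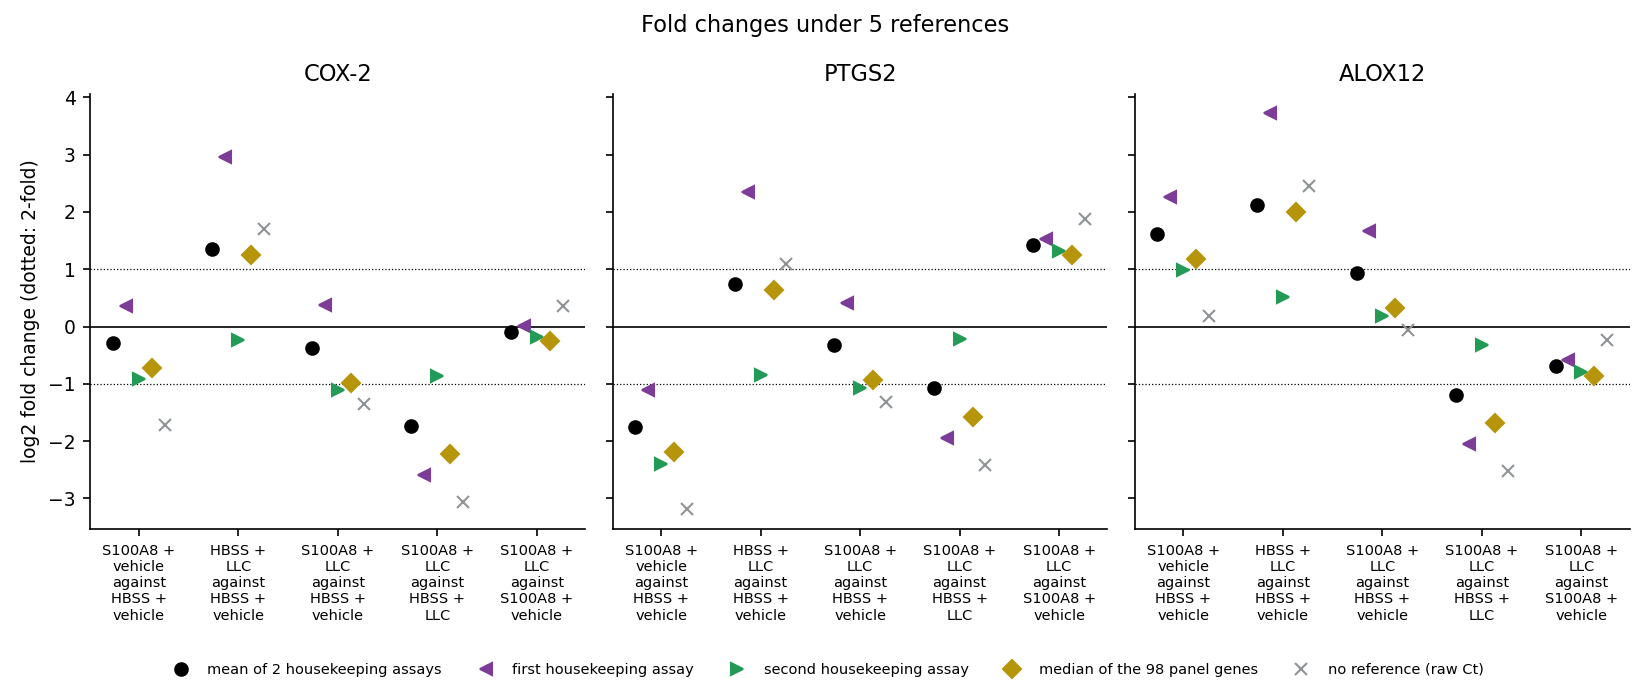
Log2 fold change of *COX-2*, *PTGS2* and *ALOX12* (panels) in the 5 comparisons under 5 choices of reference (symbols), dotted lines at 2-fold and no error bars. The symbols lie farthest apart in HBSS + LLC against HBSS + vehicle, where *COX-2* runs from -0.24 to 2.96.

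The comparisons within S100A8 and within LLC used the same 4 group values, so they can be read as 1 difference of effects. For *ALOX12*, the S100A8 effect was 1.62 without LLC and -1.19 with LLC, a difference of -2.81 on the log2 scale, the 16th lowest of the 98 genes. For *COX-2* the difference was -1.45, the 29th lowest, with effects of -0.28 and -1.73. For *PTGS2* it was 0.67, with S100A8 effects of -1.75 and -1.08, both past 2-fold. The panel median of this difference was -0.52, and 59.2% of genes had S100A8 effects of opposite sign. These were 37 genes above 0 without LLC and below 0 with LLC, *ALOX12* among them, and 21 genes the other way round. *ALOX12* was 1 of 7 genes past 2-fold with both signs, whichever came first. The *ALOX12* difference lay between -4.31 and -1.31 over the references and settings tried. That of *COX-2* had no settled direction, running from -2.95 with the first housekeeping assay to 0.05 with the second. Neither had that of *PTGS2*, which was -0.83 with the first and 2.17 with the second.

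*COX-2* and *PTGS2* measured the same gene, and the difference between them within a group does not depend on the reference. *COX-2* exceeded *PTGS2* by 6.61 cycles with HBSS + vehicle, 5.14 with S100A8 + vehicle, 6.00 with HBSS + LLC and 6.65 with S100A8 + LLC. It was almost equal in HBSS + vehicle and S100A8 + LLC and smallest in S100A8 + vehicle. The range was 1.51 cycles, which stands for 2.85-fold, and the SD over the 4 groups was 0.71 cycles. *RAGE* and *AGER*, the panel's other pair of assays of 1 gene (Ager, the receptor for advanced glycation end products), differed by 0.80, 0.77, 0.45 and 0.17 cycles in the same groups, with a range of 0.63 cycles or 1.55-fold. Between S100A8 + vehicle and HBSS + vehicle, and between S100A8 + LLC and S100A8 + vehicle, the Ptgs2 assays differed in their fold change by more than the 2-fold threshold. In the latter comparison *PTGS2* was called higher at log2 1.42 and *COX-2* was at -0.09. The parts of Ptgs2 that each assay amplifies are not given in the sources used here, and why the assays differed was not tested.

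**Figure D4:**
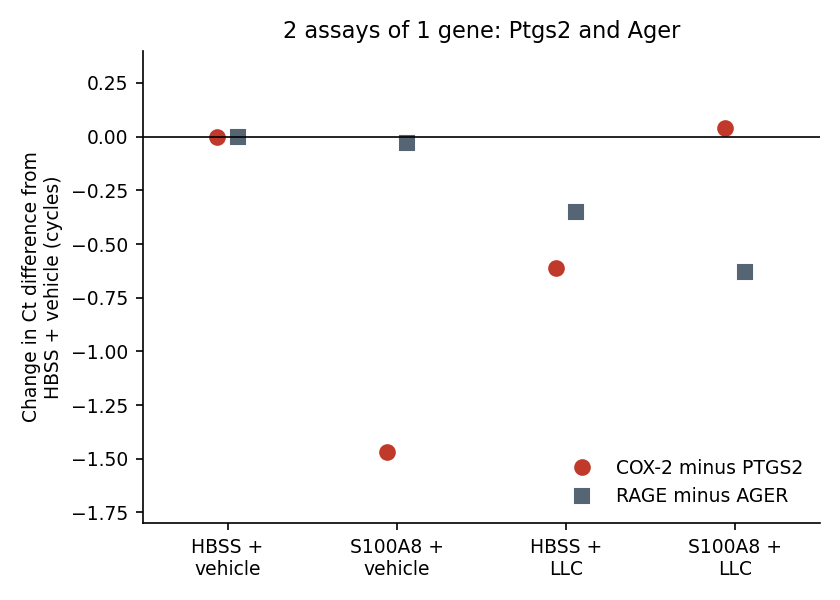
Change from HBSS + vehicle (cycles) in the Ct difference between the assays of 1 gene, *COX-2* minus *PTGS2* (circles) and *RAGE* minus *AGER* (squares), in the 4 groups, with no error bars. The Ptgs2 pair reaches -1.47 in S100A8 + vehicle and spans 1.51 cycles in all, and the Ager pair spans 0.63 cycles.

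When the Ct of both Ptgs2 assays was averaged, Ptgs2 was 2.02-fold lower in S100A8 + vehicle (log2 -1.02) and 2.08-fold higher in HBSS + LLC (log2 1.05) than in HBSS + vehicle. Both values are just past 2-fold. With the first housekeeping assay the former was -0.37, no longer a call, and with the second the latter turned to -0.54. Against HBSS + LLC, the average was 2.65-fold lower in S100A8 + LLC (log2 -1.41), or -0.54 and not called with the second housekeeping assay. The S100A8 + LLC average was 1.27-fold below HBSS + vehicle and 1.59-fold above S100A8 + vehicle, neither past 2-fold. Of the calls of the average, both assays gave the lower level in S100A8 + LLC against HBSS + LLC, *PTGS2* alone gave the lower level in S100A8 + vehicle, and *COX-2* alone the higher level in HBSS + LLC. The higher level in S100A8 + LLC against S100A8 + vehicle was called for *PTGS2* alone and not for the average. *ALOX12* differed from both Ptgs2 assays in its profile. *ALOX12* minus *COX-2* was -0.03 cycles with HBSS + vehicle, -1.93 with S100A8 + vehicle, -0.79 with HBSS + LLC and -1.33 with S100A8 + LLC. Relative to *COX-2* and free of the reference, *ALOX12* was thus above HBSS + vehicle by 3.73-fold with S100A8 + vehicle, 1.69-fold with HBSS + LLC and 2.46-fold with S100A8 + LLC. Relative to *PTGS2* the same ratios were 10.3-fold, 2.58-fold and 2.39-fold. *ALOX12* thus gained on both Ptgs2 assays in all 3 groups, but each ratio is against HBSS + vehicle, the group that stood apart. *ALOX12* minus *PTGS2* was 3.21 cycles with S100A8 + vehicle, 5.21 with HBSS + LLC and 5.32 with S100A8 + LLC. Relative to both Ptgs2 assays, *ALOX12* was therefore lower in the LLC groups than in S100A8 + vehicle.

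The panel genes most like each assay were found by the root mean square distance between profiles over the 4 groups, each centered on its own mean, among 92 genes. Closest to *COX-2* were *FGF-2* (0.41 cycles), *CAV1* (0.42) and *IDO* (0.46). *FGF-2* is a growth factor, *CAV1* a protein of membrane caveolae and *IDO* an enzyme that breaks down tryptophan. Closest to *PTGS2* were *IL-5* (0.31), *CAV1* (0.50) and *SIRT1* (0.53), which are an eosinophil cytokine, the caveolae protein and a deacetylase. Closest to *ALOX12* were *CXCL-12* (0.23), *VEGFα* (0.29) and *CAT* (0.40), a chemokine, an angiogenic factor and catalase. The median distance was 1.04 cycles from *COX-2*, 1.32 from *PTGS2* and 1.04 from *ALOX12*. *PTGS2* was only the 13th closest to *COX-2*, at 0.61 cycles, and *COX-2* was 6th closest to *PTGS2*. With 4 points per profile these distances describe the groups and carry no test.

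**Figure D5:**
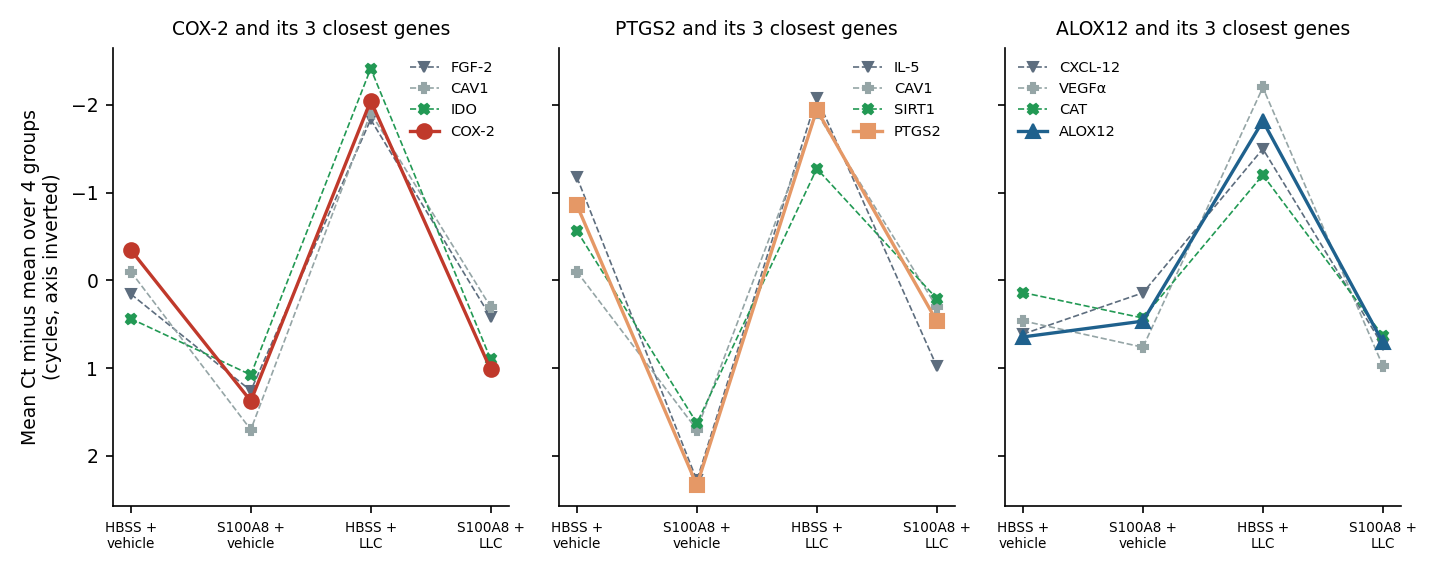
Profiles over the 4 groups (cycles, each centered on its own mean) of the 3 assays and of the 3 panel genes closest to each, with 1 averaged value per group. The gene closest to *ALOX12* is *CXCL-12*, at 0.23 cycles, and *FGF-2* is closest to *COX-2* at 0.41 cycles.

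Known inducers of cyclooxygenase-2 were read as a list of 5 genes, *IL-1β*, *TNF-α*, *NF-κB*, *EGFR* and *HIF-1α*. None was past 2-fold in S100A8 + vehicle (median log2 0.01), beside 27.8% of the panel called higher and 17.5% lower. In HBSS + LLC against HBSS + vehicle 1 was higher, *HIF-1α* at 3.54, and 1 lower, *TNF-α* at -1.46, with a median of -0.67, beside 26.5% and 21.4% of the panel. *HIF-1α* was at 35.03 cycles with HBSS + vehicle, 36.35 with S100A8 + vehicle, 31.15 with HBSS + LLC and 34.75 with S100A8 + LLC. All of these lie above 30 cycles, where an assay detects few molecules, so each of its calls here is uncertain. In S100A8 + LLC against HBSS + LLC 2 were lower, *IL-1β* at -1.03 and *HIF-1α* at -2.27, and 0 higher, with a median of -0.25 against -0.05 for the panel, of which 15.3% was called lower and 11.2% higher. In S100A8 + LLC, the counts were 1 higher and 2 lower both against HBSS + vehicle (median -0.92) and against S100A8 + vehicle (median -0.93), beside 22.4% and 18.4% and beside 12.2% and 29.6% of the panel. *HIF-1α* was the higher gene and *IL-1β* and *TNF-α* the lower ones in both. In the latter comparison *PTGS2* was called higher and *COX-2* was not called. The cytokines known to restrain the enzyme in macrophages, *IL-4*, *IL-10* and *IL-13*, were mixed. *IL-4* and *IL-10* were called higher and *IL-13* lower in all 3 groups against HBSS + vehicle, where *IL-4* was at 38 cycles. Over the panel, 22.4% to 27.8% was called higher and 17.5% to 21.4% lower in these comparisons. In S100A8 + LLC against HBSS + LLC, *IL-13* was higher at 1.52 and *IL-4* lower at -3.96, beside 11.2% and 15.3% of the panel. These calls rest on few molecules. *IL-4* was above 30 cycles in every group, *IL-13* was at 32.63 and 32.44 in the LLC groups, and *IL-10* was at 36.68 in HBSS + vehicle. Only *IL-13* was called in S100A8 + LLC against S100A8 + vehicle, lower at -2.16, beside 12.2% and 29.6% of the panel.

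A list of 8 genes linked to prostaglandin E2 and suppression held *ARG1*, *iNOS*, *IDO*, *IL-10*, *IL-6*, *VEGFα*, *CXCL-12* and *CXCR4*. In S100A8 + vehicle against HBSS + vehicle, 4 of the 8 were higher and 2 lower (median 0.97), against 27.8% and 17.5% of the panel. *PTGS2* was called lower there and *COX-2* was not called. In HBSS + LLC against HBSS + vehicle, 5 were higher and 2 lower (median 2.04), against 26.5% and 21.4% of the panel. For S100A8 + LLC against HBSS + vehicle the counts were 2 and 1 (median 0.50), against 22.4% and 18.4% of the panel. Against HBSS + LLC, 0 were higher and 2 lower in S100A8 + LLC (median -0.61), *IDO* at -1.98 and *VEGFα* at -1.84, beside 11.2% of the panel called higher and 15.3% lower. Against S100A8 + vehicle, again 0 were higher and 2 lower (median -0.71), beside 12.2% and 29.6% of the panel. *PTGS2* was called higher there, but neither *COX-2* nor the average of both Ptgs2 assays was called.

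*COX-2* and *PTGS2* belong to the panel's sub-group for MDSC expansion and activation, and *ALOX12* to that for hypoxia and angiogenesis. Of the other 13 genes of the first, 6 were higher and 4 lower in S100A8 + vehicle against HBSS + vehicle (median 0.80), beside 27.8% higher and 17.5% lower over the panel. In HBSS + LLC the counts were 7 higher and 3 lower (median 1.68), beside 26.5% higher and 21.4% lower over the panel. In S100A8 + LLC against HBSS + LLC, 1 was higher and 4 lower (median -0.60), the lower ones being *IL-4*, *IFN-γ*, *IL-1β* and *IDO*, beside 11.2% higher and 15.3% lower over the panel. Of the other 6 genes of the second sub-group, 3 were lower in that comparison, *HIF-1α*, *HIF-2α* and *VEGFα*, and *HIF-1β* was higher (median -0.66). *HIF-1α* and *HIF-1β* were above 30 cycles in every group, and *HIF-2α* in every group but HBSS + vehicle. *HIF-3α* was at 38 cycles in both vehicle groups and at 35.27 and 36.41 in the LLC groups. The calls of these HIF genes thus rest on few molecules. In HBSS + LLC against HBSS + vehicle, 3 of the 6 were higher and 2 lower (median 0.74), beside the panel's 26.5% and 21.4%. In S100A8 + vehicle, where *ALOX12* was higher, 1 was higher and 3 lower of the 5 that could be compared (median -1.31), beside the panel's 27.8% and 17.5%. In S100A8 + LLC against HBSS + vehicle, the MDSC genes had 6 higher and 4 lower (median 0.56) and the hypoxia genes 2 higher and 1 lower (median -0.10), beside the panel's 22.4% and 18.4%. Against S100A8 + vehicle, the MDSC genes had 1 higher and 5 lower (median -0.27) and the hypoxia genes 3 higher and 0 lower (median 0.88), beside the panel's 12.2% and 29.6%. *PTGS2* was called higher there, whereas *COX-2* was at -0.09 and *ALOX12* at -0.69, neither called.

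The lung markers *RAGE*, *AGER* and *CAV1* were between 14.95 and 18.56 cycles in all groups, far from the cut off. In HBSS + LLC against HBSS + vehicle *CAV1* was called higher (log2 1.47), beside 26.5% of the panel called higher and 21.4% lower. *COX-2* and *ALOX12* were called higher there too, and *PTGS2* was not called. *RAGE* and *AGER*, 2 assays of 1 gene, were called in neither direction there. Of 4 myeloid markers, 3 were called higher in S100A8 + vehicle than in HBSS + vehicle, *MMP-9* at 2.82, *S100A8* at 1.20 and *S100A9* at 1.06, with *NOX2* at 0.67. Over the panel 27.8% was called higher in that comparison, with a median of 0.34. *ALOX12* was higher and *PTGS2* lower in that comparison, and *COX-2* was not called. The summed myeloid level was, on the log2 scale, -0.10 with HBSS + vehicle, 1.06 with S100A8 + vehicle, -0.18 with HBSS + LLC and -0.11 with S100A8 + LLC. In S100A8 + LLC against HBSS + LLC, where all 3 assays were lower, none of the 4 was past 2-fold, beside 11.2% of the panel called higher and 15.3% lower. There too, of 4 epithelial markers, *CDH1*, *MUC1*, *KRT5* and *KRT14*, only *KRT14* was called, higher at 4.29, and the endothelial markers *VCAM-1* and *ICAM-1* were called in neither direction. Against HBSS + vehicle, however, *ICAM-1* was higher by 12.88 with S100A8 + vehicle, 12.90 with HBSS + LLC and 12.07 with S100A8 + LLC, whereas *VCAM-1* was at -0.58, 0.20 and -0.35 and was not called. *CDH1* was higher by 5.03, 4.07 and 3.62, and *KRT5* was lower at -3.10, -3.11 and -2.22. *KRT14* was at 0.01, -1.68 and 2.61, lower in the second group and higher in the last, and *MUC1* was at 0.58, -0.53 and -0.87 and was not called. In S100A8 + LLC against S100A8 + vehicle, where *PTGS2* but not *COX-2* was called higher, *RAGE* (-1.12), *AGER* (-1.72), *S100A9* (-1.99) and *MMP-9* (-1.63) were called lower, beside 29.6% of the panel. The other lung marker, *CAV1*, was at 0.95, and the other myeloid markers, *S100A8* and *NOX2*, were at -0.39 and -0.92, none of them called. Of the epithelial markers in that comparison, *CDH1* and *MUC1* were lower and *KRT14* was higher. The T cell marker *LCK* was lower than in HBSS + vehicle with S100A8 + vehicle (-1.63), with HBSS + LLC (-2.37) and with S100A8 + LLC (-1.86). It was at 0.51 in S100A8 + LLC against HBSS + LLC and at -0.23 against S100A8 + vehicle, neither called. None of the markers was at 38 cycles, and their part in the levels of the enzymes was not tested. Platelet markers, which would bear on *ALOX12*, are not among the assays.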

How the data were processed

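RNA of whole lungs (1.5 µg) was reverse-transcribed and 98 genes and 2 housekeeping genes were amplified with SYBR Green, with a cut off of 38 cycles. The labels name a Roche LightCycler and the methods a QuantStudio machine. The authors deposited 1 mean Ct per assay and group, not normalized and averaged over 4 to 5 mice. They also deposited fold changes, a ratio against HBSS + vehicle, which served only to name the numbered assays and groups. All 294 printed values of 98 genes matched, within 0.000269%. The 2 unmatched assays were taken as the housekeeping genes, and which is β-actin and which is β2M is not given.

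Fold changes were 2 to the power of minus the difference between groups in Ct relative to the housekeeping mean. Past 2-fold was called, with no test. Changes against a group at 38 cycles are bounds, and HIF-3α, at 38 in both groups, was left out of S100A8 + vehicle against HBSS + vehicle. The members and lists were chosen with earlier results of these data known. Named genes are the 3 assays, genes of the lists and markers where a count names them, the other assay pair, and the 3 closest profiles per assay. Promoter windows came from RefSeq (GRCm38.p6), 300 bases each, trimmed to 240. The code that makes the calls was checked on simulated Ct values, which gives no error for any call. Alternatives were other references, fold thresholds of 1.5 and 3, a Ct limit of 30, Ct capped at 35, a factor of 1.9 per cycle and the mean of the Ptgs2 assays. Among the references was each group's median Ct over the panel genes. It is a different quantity from the panel median of the log2 fold changes given with each comparison. Python 3.11.15, numpy 2.4.6 and matplotlib 3.10.9 were used.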

Additional observations from a re-analysis of the deposited data

Results flagged for a closer look

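The LLC effect on *COX-2* had opposite signs without and with S100A8, 1.36 and -0.09 on the log2 scale, a difference of -1.45. These signs were opposite with only 2 of the 5 references. With the second housekeeping assay both effects were below 0, at -0.24 and -0.19, and the difference was 0.05. For *ALOX12* the S100A8 effect was 1.62 without LLC and -1.19 with LLC, and the LLC effect was 2.12 without S100A8 and -0.69 with S100A8, the same difference of -2.81 read along either treatment, with opposite signs under 5 of 5 references. Each group is 1 averaged value, so these differences were not tested. Opposite signs of the S100A8 effect were found for 58 of the 98 genes, in the order of *ALOX12* for 37 and in the other order for 21. Opposite signs of the LLC effect were not counted over the panel, but they are not particular to these assays. Without and with S100A8, for example, *VEGFα* was at 2.32 and -0.66, and *KRT5*, the other way round, at -3.11 and 0.88.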

How the results depend on the processing

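Values are log2 fold changes, in the order of the comparisons given for each. With the second housekeeping assay as reference, *COX-2* in HBSS + LLC against HBSS + vehicle turned to -0.24 and its difference of effects to 0.05, while *PTGS2* there was -0.85 and its difference of effects 2.17. With that assay *ALOX12* fell below the threshold at 0.98 in S100A8 + vehicle and 0.52 in HBSS + LLC against HBSS + vehicle, *COX-2* and *PTGS2* in S100A8 + LLC against HBSS + vehicle became -1.11 and -1.07, and the 3 assays in S100A8 + LLC against HBSS + LLC became -0.87, -0.22 and -0.33. With the first housekeeping assay *COX-2* was 0.36, 0.37 and 0.01 in S100A8 + vehicle and S100A8 + LLC against HBSS + vehicle and S100A8 + LLC against S100A8 + vehicle. *PTGS2* was 2.35 in HBSS + LLC and 0.41 in S100A8 + LLC against HBSS + vehicle, with a difference of effects of -0.83, and *ALOX12* was 1.67 in the latter. Without a reference, a setting chosen after seeing the data, *COX-2* was -1.72, -1.36 and 0.36 in S100A8 + vehicle and S100A8 + LLC against HBSS + vehicle and S100A8 + LLC against S100A8 + vehicle. *PTGS2* was 1.09 in HBSS + LLC and -1.32 in S100A8 + LLC against HBSS + vehicle, and *ALOX12* was 0.18 in S100A8 + vehicle and -0.06 in S100A8 + LLC. With the mean of both Ptgs2 assays, also chosen after seeing the data, the value was -1.02 with S100A8 + vehicle, 1.05 with HBSS + LLC and, for S100A8 + LLC against S100A8 + vehicle, 0.66. That mean was -0.37 for S100A8 + vehicle and 0.39 for S100A8 + LLC against HBSS + vehicle with the first housekeeping assay. With the second it turned to -0.54 for HBSS + LLC and was -1.09 for S100A8 + LLC against HBSS + vehicle and -0.54 for S100A8 + LLC against HBSS + LLC. It was 0.94 for HBSS + LLC with each group's median Ct over the panel as reference. Without a reference it was -1.34 and 1.12 for S100A8 + LLC against HBSS + vehicle and against S100A8 + vehicle.

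A 3-fold threshold removed the calls of *COX-2* at 1.36, *PTGS2* at -1.08 and 1.42 and *ALOX12* at -1.19, and a 1.5-fold threshold added *PTGS2* at 0.75 and *ALOX12* at 0.93 and -0.69. Against HBSS + vehicle, the panel's calls numbered 44 for S100A8 + vehicle, 47 for HBSS + LLC and 40 for S100A8 + LLC, and for S100A8 + LLC they were 26 against HBSS + LLC and 41 against S100A8 + vehicle. For S100A8 + vehicle they became 25 with genes at or below 30 cycles in both groups. For HBSS + LLC they became 76 with the second housekeeping assay, 73 at 1.5-fold and 28 with the limit of 30 cycles. For S100A8 + LLC against HBSS + vehicle they became 63 with the second housekeeping assay, 69 without a reference, 68 at 1.5-fold, 25 at 3-fold and 23 with the limit. Against HBSS + LLC they became 49 and 45 with the first and second housekeeping assay and 40 with each group's median Ct over the panel as reference. They became 74 without a reference, 47 at 1.5-fold, and 15 both at 3-fold and with the limit. Against S100A8 + vehicle they became 67 at 1.5-fold and 14 at 3-fold. The limit of 30 cycles gave no value for *COX-2* in comparisons with S100A8 + vehicle, where its Ct was 30.23. A cap of 35 cycles and a factor of 1.9 per cycle changed no call of the 3 assays. No paired analysis was possible because each group has 1 averaged value. Depth is limited by Ct, and the deposited values used here hold no spread between mice.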
